A study of Oryza sativa with 24 samples.

Results

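The 10 genes described here encode parts of the vesicle traffic machinery of the rice cell: the secretory carrier membrane proteins SCAMP1 to SCAMP6, the ATPase NSF, the exocyst subunit SEC10, the small GTPase Rab5A and the TRAPP complex subunit TRS130. They were chosen by name, as genes whose RefSeq symbol or synonym matched this list, and all 10 were found. Each had 1 probe set of its own, so that 10 of the 57258 probe sets analysed, and 10 of the 17905 genes with such a probe set, are described. Secretory vesicles carry membrane and cell wall material to the surface of a growing cell, and a pollen tube extends at its tip by this traffic. SCAMPs are membrane proteins of vesicles that move between the Golgi apparatus, endosomes and plasma membrane. NSF takes used SNARE complexes apart, the exocyst tethers vesicles at the plasma membrane, TRAPP complexes activate Rab GTPases at the Golgi, and Rab5 works at endosomes.

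RNA of 8 tissues of Oryza sativa ssp. japonica was hybridised to rice expression arrays from Affymetrix, with 3 arrays a tissue. Uninucleate microspores (UNM) and tricellular pollen (TCP) came from anthers crushed in mannitol, and bicellular pollen (BCP) from a Percoll gradient, with grains taken around pollen mitosis. Mature pollen grains (MPG) were shaken from flowering panicles, and germinated pollen grains (GPG) were mature grains kept about 10 min in liquid germination medium. By the study's counts BCP was the least pure of UNM, BCP and TCP, and a part of the GPG grains had not germinated. The sporophytic tissues were month-old callus, root of 2-week seedlings, and leaf, which the labels call flag leaf at grain filling and the study's methods call leaf of young seedlings. Every array measured a bulk sample, so fewer cells of a type and less RNA per cell cannot be told apart.

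The labels could be set against marker genes. The summed signal of the leaf list was 202769 to 307320 on the leaf arrays and at most 4157 elsewhere, and that of the root silicon transporters LSI1 and LSI2 was 10169 to 23068 in root and at most 904 elsewhere. The pollen list summed to 660688 or more in MPG and 440 or less in the sporophytic tissues. The 6 MPG and GPG arrays stood apart in their hybridisation controls and median signal. The geometric mean of their hybridisation controls was 8989 to 17347 against 1458 to 4228 on the other 18 arrays, and their median signal was 146.9 to 197.85 against 51.3 to 105.2. Their 3'/5' ratio of GAPDH overlapped that of the others, at 3.64 to 17.4 against 1.41 to 8.16. The ratio of actin did not set them apart, at 2.442 to 3.818 against 1.205 to 6.653. The part of these differences in any result was not tested. Values under other array scalings stand beside a tested change where they alter a call or a direction. Levels and the orders of tissues are given as deposited. Across MPG and TCP the median log2 change of all probe sets was 0.55 as deposited, 0.11 after quantile normalization, −0.05 with equal medians, −0.51 with the hybridisation controls and −0.54 with the poly-A controls as the scale. Of the probe sets called in that comparison, 69.5% were higher as deposited and 1.6% to 45.9% under the other scalings. For late against early pollen these shares were 68.1% and 7.3% to 49.2%, and for pollen against sporophytic tissues 50.1% and 13% to 45.3%. For TCP against BCP they were 44.3% and 22.2% to 40.9%, and for BCP against UNM 42.7% and 26.6% to 45.2%. For GPG against MPG they were 39.1% and 12.5% to 100%, the last from 1 call.

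SCAMP1 kept its level through early pollen and, as deposited, had its highest signals in mature and germinated pollen. Its signals were 3741, 2993 and 3334 in UNM, 3163, 4689 and 3337 in BCP, and 3537, 4583 and 3120 in TCP. They were 7536, 7041 and 6424 in MPG and 7128, 7530 and 8115 in GPG. Both late stages lay above every array of the 3 early stages. In the sporophytic tissues SCAMP1 had 2296 ± 230 (SD, n = 3) in root, 1508 ± 34.8 in callus and 648 ± 120 in leaf, each below all pollen arrays. In descending order the tissues were GPG, MPG, TCP, BCP, UNM, root, callus and leaf, and the ranges overlapped between GPG and MPG and between neighbours among TCP, BCP and UNM.

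**Figure D1:**
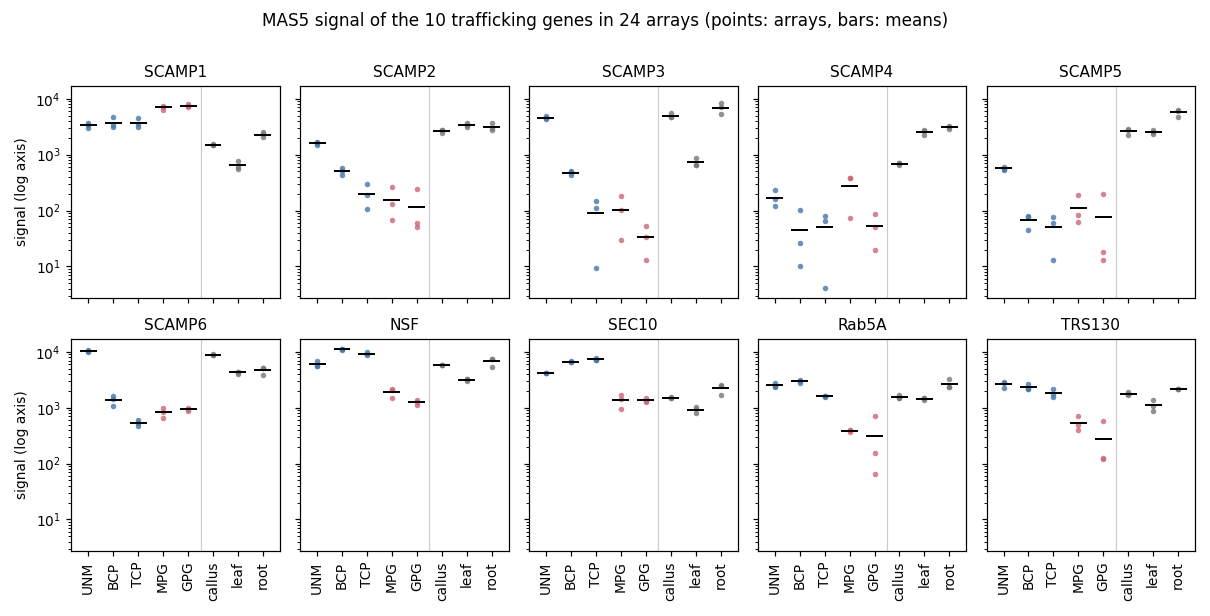
MAS5 signal (log axis) of the 10 genes in 8 tissues, with points for the 3 arrays of a tissue and bars for their mean. Blue marks early pollen, red MPG and GPG, grey the sporophytic tissues, and SCAMP1 is the SCAMP whose red points lie above its blue points, while NSF, SEC10, Rab5A and TRS130 drop between TCP and MPG.

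The other 5 SCAMP genes had lower signals in MPG and GPG than in any sporophytic tissue. By rank within the array SCAMP6 still lay above 84.8% to 88.7% of probe sets in MPG and 87.1% to 88.5% in GPG. SCAMP6 had 9971, 10248 and 10848 in UNM, 1423, 1079 and 1602 in BCP, and 605, 543 and 474 in TCP. Its level in MPG was 837 ± 166 and in GPG 938 ± 67.2. The sporophytic levels were 8954 ± 103 (callus), 4704 ± 697 (root) and 4317 ± 183 (leaf). As deposited, UNM thus lay above callus, and every later pollen stage below every sporophytic tissue, with separate ranges. By rank within the array UNM (98.37% to 98.61%) and callus (98.42% to 98.5%) overlapped, so their order depends on the scaling. SCAMP3 had 4610, 4323 and 4874 in UNM, 428, 501 and 480 in BCP and 150, 9.40 and 110 in TCP. It remained at 104 ± 74.9 in MPG and 33.4 ± 20.0 in GPG, while root had 6942 ± 1573, callus 4979 ± 431 and leaf 731 ± 129. Microspores and callus overlapped for SCAMP3, and leaf was the lowest of the sporophytic tissues.

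SCAMP2 stepped down more gradually. Its signals were 1676, 1494 and 1650 in UNM, 438, 509 and 584 in BCP, and 294, 191 and 108 in TCP. In MPG they were 66.6, 131 and 264 and in GPG 243, 50.2 and 59.7, so that TCP, MPG and GPG overlapped. Leaf, root and callus were close to each other, at 3429 ± 281, 3165 ± 495 and 2659 ± 157. Its probe set is of a type that may match several transcripts.

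SCAMP4 and SCAMP5 were lower throughout pollen than in the sporophytic tissues. SCAMP5 had 563, 541 and 597 in UNM and at most 199.6 in any later pollen array, while callus had 2254 to 2936, leaf 2358 to 2795 and root 4674 to 6350. SCAMP4 had 119 to 229 in UNM, 4.10 to 100.2 in BCP and TCP, and 384, 72.7 and 379 in MPG. Its signals were 19.8 to 87.3 in GPG, 651 to 722 in callus, 2256 to 2720 in leaf and 2876 to 3205 in root. Every sporophytic array of SCAMP4 lay above all its pollen arrays, and the lowest MPG array fell within the ranges of BCP, TCP and GPG.

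The balance within the family does not depend on a single scaling factor per array, since all 6 signals come from the same array. SCAMP1 made up 16.2% ± 1.61 of the summed SCAMP signal in UNM, 59.8% ± 7.40 in BCP and 79.9% ± 5.63 in TCP (SD, n = 3). It was 82.5% ± 0.527 in MPG and 86.1% ± 1.68 in GPG, and only 7.04% ± 0.377 for callus, 8.89% ± 0.567 for root and 4.56% ± 0.789 for leaf. The share of SCAMP6 was 50.2% ± 1.83 in UNM and 11.6% ± 1.33 in TCP. Probe sets differ in brightness at equal transcript numbers, so these shares compare tissues and are not shares of molecules.

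**Figure D2:**
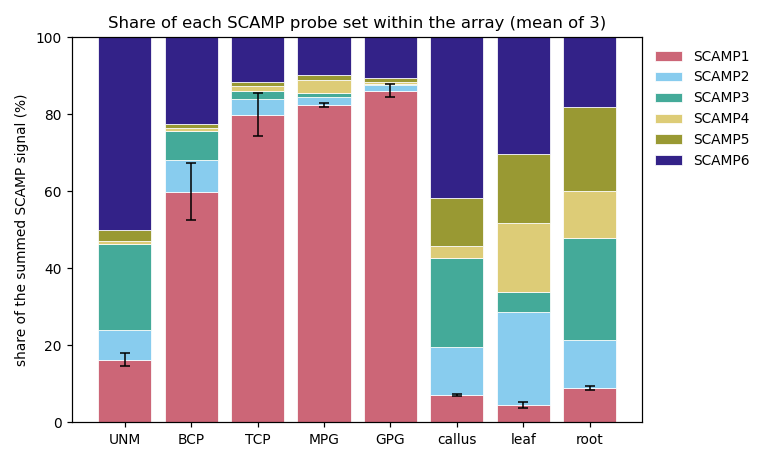
Mean share (%) of each SCAMP probe set in the summed signal of the 6 SCAMP probe sets, by tissue, with the SD of the SCAMP1 share over 3 arrays as error bars. SCAMP1 goes from 16.2% in UNM to 86.1% in GPG and is under 10% in callus, leaf and root.

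Steps between stages were tested in a limma model of log2(signal + 50) fitted to 47589 probe sets. A gene is said to have risen or fallen at an adjusted p under 0.05 and at least a 2-fold change. From UNM to BCP, 5 of the 10 genes fell and 0 rose, where 8.19% of all probe sets fell and 6.11% rose. All 5 were SCAMPs. SCAMP3 fell by 3.16 on the log2 scale (SE 0.37, limma adjusted p = 1.9e-06), SCAMP6 fell by 2.89 (SE 0.20, adjusted p = 7.6e-10), SCAMP5 fell by 2.41 and SCAMP2 fell by 1.57. SCAMP4 fell by 1.29 with adjusted p = 0.039, a call that was lost without UNM replicate 2 or 3 or BCP replicate 2 or 3. It was also lost with an offset of 1 (adjusted p = 0.086) or 100 (−0.92), after quantile normalization (adjusted p = 0.062) and with the poly-A controls (adjusted p = 0.28). With the poly-A controls SCAMP2 did not pass either (adjusted p = 0.14). The log2 change of SCAMP1 was 0.13 (SE 0.21, adjusted p = 0.81). NSF was 0.91 higher (adjusted p = 0.0018) and SEC10 0.68 higher (adjusted p = 0.028), both under 2-fold, and NSF rose past 2-fold without UNM replicate 1.

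Markers of the tapetum and of dividing cells moved in the same step. Microspores themselves go on to divide, so the second list does not mark another cell type. Of 6 tapetum genes, which belong to the nutritive layer of the anther wall, 3 fell from UNM to BCP, and the list summed to 15803 to 17568 in UNM against 1490 to 1927 in BCP. RTS, the brightest, had 12695 ± 507 and 1107 ± 270, whereas CYP703A3, TDR and PTC1 had means of 61.3, 86.2 and 123 in UNM. Of 13 probe sets for genes of dividing cells, such as PCNA and the MCM helicase subunits, 10 fell, and their sum was 28276 to 32119 in UNM and 8367 to 8507 in BCP. The part of either list in the SCAMP result was not tested.

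From BCP to TCP, 3 genes fell and 0 rose, against 12.9% and 10.2% of all probe sets. SCAMP3 fell by 2.07 (limma adjusted p = 0.00019), SCAMP6 fell by 1.25 (adjusted p = 4.9e-05) and SCAMP2 fell by 1.24 (adjusted p = 0.013). SCAMP2 did not pass without BCP replicate 3 or TCP replicate 3, and SCAMP6 did not pass after quantile normalization (−0.84) or with the poly-A controls (adjusted p = 0.065). Rab5A was at −0.88 (adjusted p = 0.11) and passed as a fall at −1.27 with equal medians and −1.13 with the hybridisation controls. The log2 change of SCAMP1 was 0.01 and that of SEC10 0.15. Of the 6 tapetum genes 3 fell in this step too, and the list summed to 299 to 417 in TCP. Its part in the SCAMP result was not tested.

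NSF, SEC10, Rab5A and TRS130 had their lowest pollen signals in MPG and GPG. NSF had 6875, 5593 and 5549 in UNM, 11437, 11299 and 11055 in BCP, and 8675, 9334 and 10045 in TCP. It then had 2142, 1503 and 2058 in MPG and 1140, 1383 and 1263 in GPG, below every other array of the series. Root had 6803 ± 1312, callus 5872 ± 61.6 and leaf 3202 ± 136, with root, UNM and callus overlapping.

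SEC10 had 4160, 4123 and 4144 in UNM, 6606, 6623 and 6794 in BCP, and 7128, 7244 and 7895 in TCP. In MPG it had 1456, 936 and 1694 and in GPG 1524, 1350 and 1292. These overlapped callus, at 1472 to 1569, and MPG also overlapped leaf, at 813 to 1022. All early pollen arrays lay above root, whose signals were 2568, 2422 and 1701.

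Rab5A, also known as GLUP4 or GPA1 from rice mutants in storage protein transport, had 2323, 2779 and 2497 in UNM, 3078, 3139 and 2769 in BCP and 1628, 1532 and 1635 in TCP, where every array lay below those of UNM and BCP. It had 398, 407 and 369 in MPG and 63.9, 703 and 152 in GPG, where 1 array stood above the MPG range and the other two below it. BCP, root (2694 ± 551) and UNM overlapped, as did callus (1549 ± 117) with TCP on one side and leaf (1443 ± 57.4) on the other. TRS130 had 2817, 2223 and 2884 in UNM, 2643, 2145 and 2208 in BCP and 2191, 1789 and 1590 in TCP. It had 722, 408 and 499 in MPG and 127, 581 and 119 in GPG. The same GPG array, replicate 2, was the high one for Rab5A and TRS130. By rank within the array, Rab5A lay above 32.2%, 84.7% and 50.8% of probe sets in GPG, and TRS130 above 45.3%, 81.3% and 44.9%. Replicates 1 and 3 were thus near the middle of the array or below it, which limits what order can be read in GPG. In root TRS130 had 2145 ± 7.38, in callus 1791 ± 87.1 and in leaf 1108 ± 238, all above the 6 late pollen arrays.

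From TCP to MPG these 4 genes fell and 1 SCAMP rose, where 11.9% of all probe sets fell and 27.0% rose. SEC10 fell by 2.44 (SE 0.21, limma adjusted p = 1.2e-08), NSF fell by 2.28 (SE 0.20, adjusted p = 9.8e-09), Rab5A fell by 1.90 (SE 0.40, adjusted p = 0.00063) and TRS130 fell by 1.71 (SE 0.35, adjusted p = 0.00052). The falls passed under each of the 4 other scalings. After quantile normalization they ran from −1.59 (TRS130) to −2.13 (Rab5A), and with the hybridisation controls from −3.26 (TRS130) to −4.17 (SEC10). SCAMP4 rose by 1.60 (adjusted p = 0.0046), but its value was 0.32 with the hybridisation controls and 0.84 with equal medians, neither of which passed. The rise also did not pass in a fit of only the TCP and MPG arrays. SCAMP1 was 0.91 higher (adjusted p = 0.0014, under 2-fold) as deposited and −0.91 with the hybridisation controls, and it passed at 1.06 without TCP replicate 2. SCAMP6 was 0.57 higher, under 2-fold, and passed as a fall at −1.07 with the hybridisation controls. SCAMP2 was at −0.33 (adjusted p = 0.48) and passed as a fall at −1.07 after quantile normalization, −1.49 with the hybridisation controls and −1.71 with the poly-A controls.

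From MPG to GPG 2 genes fell and 0 rose, against 4.67% and 3.00% of all probe sets. SCAMP4 fell by 1.52 (limma adjusted p = 0.028) and TRS130 fell by 1.12 (adjusted p = 0.047). Neither passed under the equal-median, hybridisation or poly-A scaling, or in a fit of only the MPG and GPG arrays. SCAMP4 did not pass without MPG replicate 1 or 3 or GPG replicate 1 or 2. TRS130 passed only without MPG replicate 2 or GPG replicate 2 among the 24 fits that left out an array. The log2 change of SCAMP1 was 0.12, of SEC10 0.06 and of NSF −0.56 (adjusted p = 0.078). Rab5A was at −0.77 (adjusted p = 0.24) and passed as a fall at −1.54 without GPG replicate 2. SCAMP3 passed at −1.20 without MPG replicate 3, and SCAMP5 at −1.21 without GPG replicate 3.

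**Figure D3:**
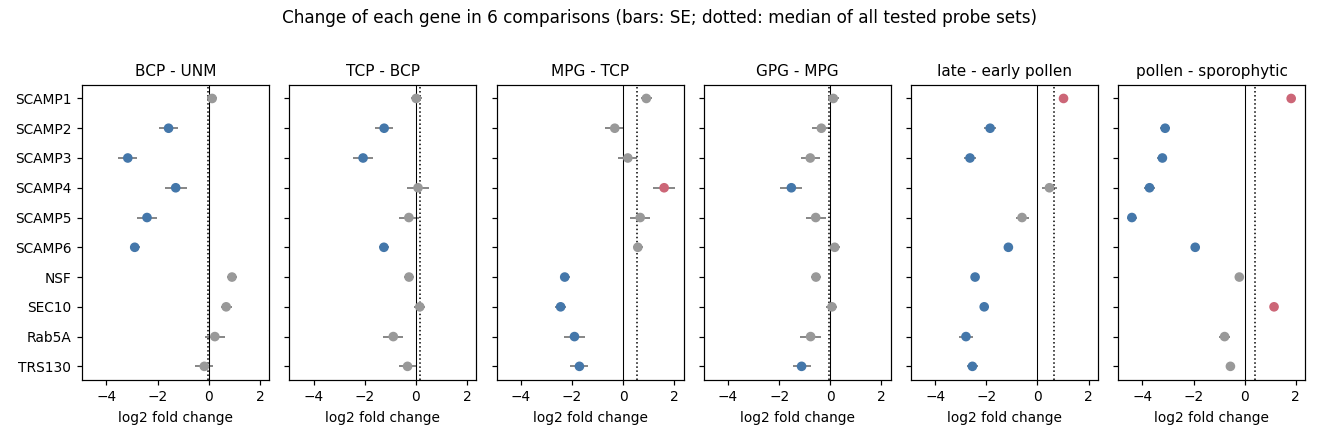
Log2 fold change (x axis, with SE bars) of the 10 genes in 6 comparisons, red for genes that rose and blue for genes that fell by the limma rule, grey for the others, with the median of all tested probe sets dotted. SCAMP2 to SCAMP6 fall in the first step, SCAMP2, SCAMP3 and SCAMP6 again from BCP to TCP, and NSF, SEC10, Rab5A and TRS130 from TCP to MPG.

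Late pollen (MPG and GPG) against early pollen (UNM, BCP and TCP) uses the same arrays as the steps above. Of the 10 genes 7 were lower and 1 was higher, where 17.0% of all probe sets were lower and 36.3% higher, and the median log2 change was −1.97 for the 10 genes and 0.66 for all probe sets. Rab5A was lower by a log2 value of −2.80 (limma adjusted p = 4.2e-09), SCAMP3 by −2.64, TRS130 by −2.54, NSF by −2.44, SEC10 by −2.08, SCAMP2 by −1.85 and SCAMP6 by −1.14. The SCAMP6 value was −0.92 after quantile normalization, under 2-fold. SCAMP5 was at −0.60, under 2-fold, and passed at −1.12 to −1.77 under the other scalings.

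SCAMP1 was the exception, with a log2 change of 1.02 (SE 0.13, limma adjusted p = 1.0e-06), and its direction turned with the scaling. It was −0.15 with equal medians, −1.19 with the hybridisation controls and −1.16 with the poly-A controls, where all probe sets had medians of −0.01, −0.54 and −0.51. Its value also slipped just under the 2-fold limit, at 0.98 to 1.00, without any one of UNM replicate 2, BCP replicates 1 or 3, TCP replicate 3, MPG replicate 1 or GPG replicate 3. By rank within the array, which no scaling changes, SCAMP1 lay above 93.6% to 95.8% of probe sets in early pollen and above 96.8% to 97.4% in late pollen. NSF lay above 96.6% to 98.4% in early and 89.7% to 93.9% in late pollen. A rank also depends on the other probe sets of the array, so it does not settle the direction of SCAMP1.

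**Figure D4:**
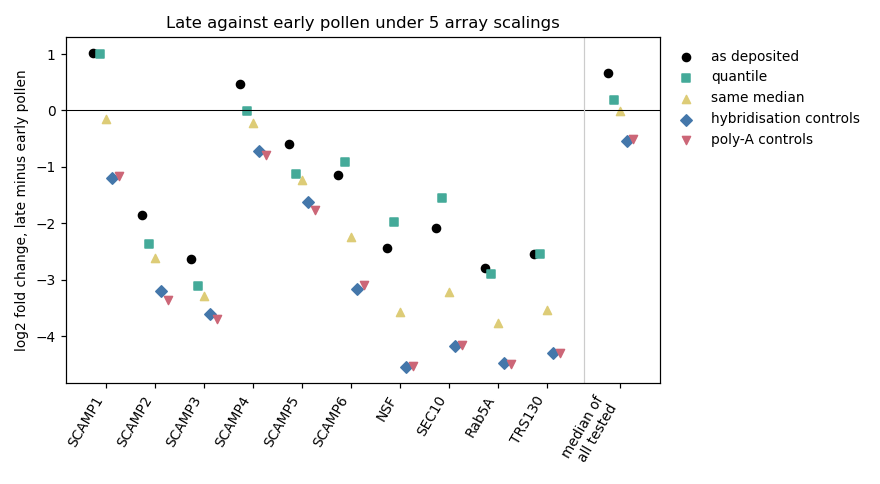
Log2 fold change of late against early pollen for the 10 genes and the median of all tested probe sets, under 5 array scalings (marker shapes). NSF, SEC10, Rab5A, TRS130, SCAMP2, SCAMP3 and SCAMP6 are below 0 under all 5, whereas SCAMP1 is 1.02 as deposited and −1.19 with the hybridisation controls.

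Against the sporophytic tissues, pollen as a whole had 5 of the 10 genes lower and 2 higher, where 20.7% of all probe sets were lower and 20.8% higher. The median log2 change was −1.36 for the 10 genes and 0.39 for all probe sets. SCAMP5 was lower by −4.41 (SE 0.20, limma adjusted p = 3.1e-14), SCAMP4 by −3.72 (SE 0.22, adjusted p = 2.3e-12), SCAMP3 by −3.22, SCAMP2 by −3.11 and SCAMP6 by −1.93. All 5 passed under each of the 4 other scalings and without the MPG and GPG arrays, where SCAMP5 was at −4.17 and SCAMP6 at −1.48.

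SCAMP1 was 1.82 higher in pollen (SE 0.11, adjusted p = 2.3e-12), 1.41 without the MPG and GPG arrays and 1.15 with equal medians. With the hybridisation controls it was 0.40, under 2-fold. SEC10 was 1.15 higher (adjusted p = 7.0e-09) and 1.98 without the MPG and GPG arrays, but −0.23 with the hybridisation controls, 0.50 with equal medians and 0.83 without the leaf arrays. NSF was at −0.21 (adjusted p = 0.066), Rab5A at −0.79 and TRS130 at −0.56, none past 2-fold. With the hybridisation controls they were −1.61, −2.0 and −1.80, all past the threshold, and with equal medians Rab5A (−1.37) and TRS130 (−1.16) passed as lower. Without the MPG and GPG arrays these became 0.77, 0.33 and 0.46.

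Across the 24 arrays SCAMP2 to SCAMP6 varied together, with a median Pearson r of 0.84 over their 10 pairs (0.581 to 0.912). SCAMP1 ran opposite to them, at −0.835 to −0.55. NSF, SEC10, Rab5A and TRS130 had a median r of 0.817 over 6 pairs (0.504 to 0.957), the highest for Rab5A with TRS130. Between the 2 groups r was −0.552 to 0.648. These values are descriptions over arrays that share 8 tissues. They were taken on the signals as deposited, and r under the other scalings was not computed.

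Of 3069 named probe sets, the 3 most like each gene were also taken by Pearson r on log2(signal + 50) over the 24 arrays. SEC10 was closest to VDAC3, a mitochondrial outer membrane porin (r = 0.983), and to SCS-alpha and SCS-beta, subunits of the citric acid cycle's succinyl-CoA ligase (0.976 and 0.959). NSF was closest to IF1-2 (0.969), aconitase (0.966) and SDH3-2, a succinate dehydrogenase subunit (0.963). Those most like SCAMP1 included the kinesin KIN13A (0.963) and TubA, a tubulin gene (0.958). Rab5A was closest to SPP30-like (0.967), TRS130 (0.957) and STT3-A (0.953), and TRS130 to Rab5A (0.957), SPP30-like (0.953) and copz1, a coatomer gene (0.943). For the other SCAMPs the leading names were BSL2 (0.978, SCAMP2), ERG3 (0.962, SCAMP3), DRR2 (0.97, SCAMP4), Glup3 (0.974, SCAMP5) and SGT1 (0.95, SCAMP6).

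Other trafficking genes gave 10 genes with 19 probe sets, 18 of which could be tested. From TCP to MPG 8 of the 18 probe sets fell and 3 rose, where 11.9% and 27.0% of all probe sets did. In late against early pollen 9 were lower and 1 higher, against 17.0% and 36.3% of all probe sets. Under the other scalings these numbers were 9 to 12 fallen and 0 to 2 risen, and 11 to 14 lower and 1 higher. Those of all 47589 probe sets moved as well, to 7435 to 14282 fallen and 173 to 6305 risen, and to 10070 to 17751 lower and 1403 to 9763 higher. SLY1, a Sec1-type regulator of SNAREs, had 3023 ± 239 in TCP and 590 ± 137 in MPG and fell by 2.28 (limma adjusted p = 1.8e-08). TRS120, a partner of TRS130 in the TRAPP complex, went from 1713 ± 268 to 303 ± 219 and fell by 2.48. RGP2, a Rab-type GTPase, had 5474 ± 224 in TCP and 463 ± 21.7 in MPG and fell by 3.43. Its dimmer probe set fell by 3.64. GPA3, which acts with Rab5A in storage protein transport in rice, and the vacuolar sorting receptors RMR1 and RMR2 fell in the same step, with −1.95, −2.48 and −1.32 for their brightest probe sets. Of 2 GPA3 probe sets 1 fell, and of 4 RMR2 probe sets 2 fell. The brightest probe sets of all 6 of these genes passed in this step under each scaling. Those of RGP2, GPA3, RMR1 and RMR2 are of types that may match several transcripts.

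VPS9A, which activates Rab5 by nucleotide exchange, had 9522 ± 604 in TCP, 5267 ± 918 in MPG and 6339 ± 185 in GPG, against 1922 to 2794 as means in the sporophytic tissues, and was 1.36 higher in pollen (limma adjusted p = 4.6e-11). That value was 0.69 with equal medians and −0.06 with the hybridisation controls, neither of which passed. RIC1, a Rab-type GTPase, had 12241 ± 349 in callus and 12635 ± 1235 in root but 747 ± 236 in TCP, and was lower in pollen by −2.35 (−2.70 to −3.77 under the other scalings). RGP1 was lower in pollen by −4.36, with 193 ± 17.2 in UNM and 2334 ± 175 in leaf, and passed under each scaling. For RIC2 the probe sets disagreed. The brightest had 1260 ± 130 in UNM, 18486 ± 2226 in MPG and 24793 ± 3024 in GPG, whereas another had 6426 ± 971 in callus and 404 ± 108 in GPG, so no direction is given for the gene. The brightest probe sets of VPS9A, RGP1 and RIC2 are also of a type that may match several transcripts.

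**Figure D5:**
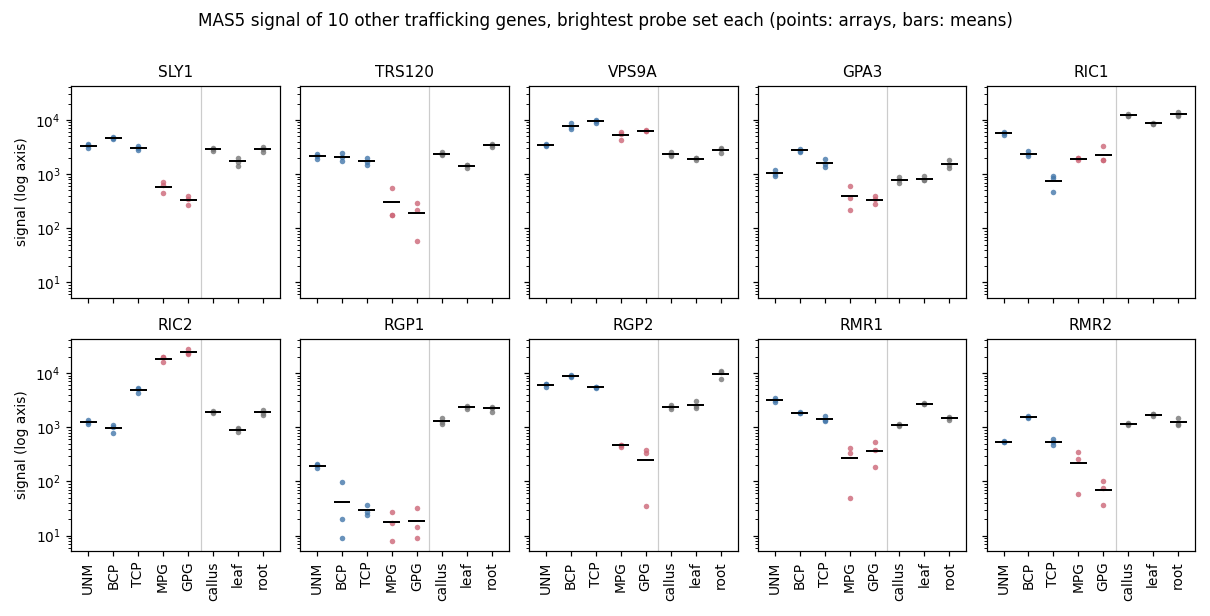
MAS5 signal (log axis) of 10 other trafficking genes, brightest probe set each, in the 8 tissues, with points for arrays and bars for means. SLY1, TRS120, GPA3, RGP2, RMR1 and RMR2 drop between TCP and MPG, VPS9A lies above its sporophytic levels in every pollen stage as deposited, and the RIC2 probe set reaches 24793 in GPG.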

How the data were processed

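The authors deposited linear signal intensity values from GCOS and MAS5, scaled to a target of 500 on each array. Of 57381 probe sets 123 controls were left out, and 22436 of the rest map to 1 gene through the platform annotation, updated to RefSeq names. The 24 arrays were grouped by their labels, and the study describes 3 independent biological replicates. The precision is limited by 3 arrays a tissue.

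Signals of at least 100 in 3 arrays were kept, which left 47589 probe sets and all 10 genes. R 4.3.3 with limma 3.58.1 fitted log2(signal + 50) with a mean per tissue over all arrays, and p-values were adjusted by Benjamini-Hochberg over all of them. Fold changes on this scale understate the change of low genes. The fit was tried on simulated data for BCP against UNM only, and no other comparison was simulated. Python 3.11.15 with numpy 2.4.6, pandas 2.3.3 and matplotlib 3.10.9 did the rest. Alternatives changed the offset, filter, scaling, samples, replicate block and each array.

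The members and lists were chosen with earlier results of these data known. Members were named by symbol or synonym, and for each the named probe sets of highest r were taken, up to 3, of which 1 for SCAMP1 is not reported here. Names are all that families could be matched on: SLY1 and TRS120 came from name patterns, 8 genes were added by hand, and dehydrins named RAB16, RAB21 or rab25 and GAP1 were left out. Markers CAB1R, PsbS, RCc3, DPW and UDT1 were not used here. No sequence or coordinate is given.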

Additional observations from a re-analysis of the deposited data

How the results depend on the processing

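Alternatives, mostly leaving out 1 array, changed 88 of 1940 single-gene values: 64 lost the threshold, 19 gained it and 5 turned. The falls of NSF, SEC10, Rab5A and TRS130 from TCP to MPG (4 genes) and in late pollen, and the lower SCAMP2 to SCAMP6 in pollen, kept their calls in every alternative run. Turns, counted only where a call was made, were SCAMP1 in late pollen (−0.15 with equal medians, −1.19 hybridisation, −1.16 poly-A). Hybridisation scaling also turned SCAMP6 from TCP to MPG (−1.07) and SEC10 in pollen against sporophytic tissues (−0.23). The poly-A scaling, the fit without MPG and GPG and the fit without leaf were chosen after seeing the data.

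Counts of genes moved as follows, with those of all 47589 probe sets beside them for the scalings named. From UNM to BCP 3 fell with poly-A controls and 4 with an offset of 1 or 100 or quantile normalization. Of all probe sets 3899 fell as deposited, 1559 with poly-A controls and 3373 after quantile normalization. From BCP to TCP 4 fell with equal medians or hybridisation controls and 2 with poly-A controls or quantile normalization. From TCP to MPG 0 rose with equal medians, hybridisation or poly-A controls or only the tissues compared, and 2 had a 2-fold rise with no test, while 6 fell under the hybridisation scaling and 5 under the poly-A scaling or quantile normalization. From MPG to GPG 0 fell with an offset of 1, equal medians, hybridisation or poly-A controls or only the tissues compared, and 1 with an offset of 100 or no filter. In late against early pollen 0 were higher with equal medians, hybridisation or poly-A controls or quantile normalization, and 8 were lower with equal medians or a 2-fold change with no test and 9 with hybridisation or poly-A controls. In pollen against sporophytic tissues 1 was higher with equal medians, poly-A controls or no leaf arrays, and 0 with hybridisation controls, where 8 were lower (7 with equal medians).

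Leaving out 1 array at a time gave 0 to 1 genes higher and 4 to 5 lower from UNM to BCP, 0 higher and 2 to 3 lower from BCP to TCP, and 1 to 2 higher and 4 lower from TCP to MPG. It gave 0 higher and 0 to 2 lower from MPG to GPG, 0 to 1 higher and 7 lower in late against early pollen, and 2 higher and 5 lower in pollen against sporophytic tissues. No count over all probe sets was taken for these fits.

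Deviations of arrays with the same replicate number had a mean r of 0.037 (−0.053 to 0.176, 84 pairs). For different numbers it was −0.018 (−0.161 to 0.139, 168 pairs). Of 24 arrays 17 correlated best with an array of their own number, although more of the pairs had different numbers. The main fit did not take the numbers as pairs, and a replicate block was fitted as an alternative. The replicate block moved the probe sets called from 6809 to 6840 for BCP against UNM, 11012 to 11083, 18493 to 18599 and 3651 to 3813 for the next steps, 25361 to 25368 for late pollen and 19721 to 19722 for pollen, and changed no call of the 10 genes. Low signals of SCAMP2 to SCAMP5 in late pollen and Rab5A and TRS130 in GPG limit what order can be read.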
